A study of Mus musculus with 12 samples.

Results

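The genes described here are the constitutive subunits of the proteasome, its assembly chaperone Pomp and the transcription factor Nfe2l1, measured as mRNA in mouse J774A.1 cells after hypochlorous acid (HOCl). They were chosen by gene symbol, with earlier results of these data known. All 34 were found among the 28977 gene IDs of the deposited table. They comprise 14 subunits of the 20S core (7 of the alpha ring and 7 of the beta ring), 18 subunits of the 19S cap (6 ATPases and 4 other subunits of its base, and 8 subunits of its lid), Pomp and Nfe2l1. The inducible subunits of the immunoproteasome were not members. All 34 passed the filter on low values (3 or more libraries with 1 FPKM or more), as did 12026 genes in all. FPKM scales the reads of a gene to its length and to the depth of its library.

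The proteasome is the protease that degrades proteins marked with ubiquitin, and it also removes oxidised and unfolded proteins. The 20S core is a barrel in which rings of alpha subunits form the gate and rings of beta subunits carry the active sites. The 19S cap binds ubiquitin chains, removes them, and unfolds the substrate with its ring of ATPases. Nfe2l1, also called Nrf1, is a membrane-bound factor of the endoplasmic reticulum that is itself degraded by the proteasome. When proteasome activity falls it is cut, enters the nucleus with small Maf partners, and activates proteasome genes through antioxidant response elements. Macrophages use proteasomes for protein turnover and for making antigenic peptides.

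The study asked how this macrophage line responds to HOCl, the oxidant that neutrophil myeloperoxidase makes, with its title pointing to mitophagy genes. There were 3 libraries in each of 4 groups, all from the same line: HOCl 100µM in the salt solution HBSS, HOCl 20µM in HBSS, HBSS alone (0 µM HOCl, the vehicle control) and cell media (given medium in place of HBSS). Cells were exposed for 1 h and collected after a further 24 h in full medium. One concentration was meant to be sublethal and another lethal, and the labels do not say which is which. J774A.1 is a tumour-derived line and stands for macrophages only as far as such a line does. The labels do not tell whether replicates came from separate cultures, so a p-value here reflects the spread among these samples alone, which may be technical.

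Depth per library, recovered from the values, was 17683937 to 21408518 reads. Macrophage markers had a sum of 3318 to 4349 FPKM over 8 genes in every library, most of it from Lyz2 (2020 to 2892 FPKM). Not all of the 8 were high. Adgre1 had 3.71 to 9.14 FPKM, and Mrc1 had 0.311 to 1.13 FPKM and did not pass the filter. The sums for T cells, B cells, fibroblasts and epithelial cells were at most 0.125, 0.0868, 0.298 and 0.0926 FPKM. Replicates 1 and 2 of cell media were unlike the other 10 libraries: ribosomal protein genes made up 12.9% and 12.8% of their FPKM, against 7.61% to 8.53% in the others. Because all groups share 1 estimate of the spread, results are also given without these 2 libraries, on 10 libraries, a setting chosen with earlier results of these data known.

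Promoters were read from RefSeq (build GRCm38.p6, 250 bases before to 50 after a gene's start), in which 28 of the 34 members had an entry; Psmb1, Psmb2, Psmb7, Psmc3, Psmd3 and Psmd7 had none. Motifs were searched on both strands. The core of the antioxidant response element, TGACNNNGC, is the element that Nfe2l1 and its relative Nfe2l2 bind. It was found in 5 of the 28 members (17.9%), against 17.0% of 8158 tested genes with an entry and 13.99% of all 27025 genes. CCAAT, the letters bound by the factor NF-Y, was found in 12 of 28 members (42.9%), against 43.3% of tested genes. CCGGAAG, the core bound by ETS factors, was found in 12 of 28 (42.9%), against 22.8% of tested genes and 9.93% of all genes. No match of 1 of these motifs overlapped a match of another in the members. The following 120 bases end at the annotated start of the catalytic subunit Psmb5, the lid subunit Psmd6, Pomp and the most upstream start of Nfe2l1, the genes with the largest differences at HOCl 100µM; all are printed 5′ to 3′ on the gene's strand, with matches in capitals.
Psmb5, chr14:54617996-54618115, minus strand: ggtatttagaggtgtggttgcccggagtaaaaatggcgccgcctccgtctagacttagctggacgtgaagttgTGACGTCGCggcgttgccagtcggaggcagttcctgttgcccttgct
Psmd6, chr14:14120946-14121065, minus strand: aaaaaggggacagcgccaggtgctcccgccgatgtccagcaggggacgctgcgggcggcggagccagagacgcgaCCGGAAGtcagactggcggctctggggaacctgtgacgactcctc
Pomp, chr5:147860508-147860627, plus strand: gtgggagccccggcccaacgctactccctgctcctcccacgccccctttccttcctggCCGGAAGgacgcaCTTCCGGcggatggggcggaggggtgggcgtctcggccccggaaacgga
Nfe2l1, chr11:96829969-96830088, minus strand: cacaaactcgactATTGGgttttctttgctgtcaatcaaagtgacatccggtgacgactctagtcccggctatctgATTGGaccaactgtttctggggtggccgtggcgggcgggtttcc
The capitals mark an antioxidant element core in Psmb5, an ETS core in Psmd6, 2 ETS cores in Pomp and 2 CCAAT boxes, read on the other strand, in Nfe2l1. The other 4 members with an antioxidant element core are shown around it, because their differences at HOCl 100µM were smaller than that of Psmb5 or near 0.
Psmb6, chr11:70525332-70525356, plus strand: ggcggactaaagagagTGACGGAGC
Adrm1, chr2:180171410-180171450, plus strand: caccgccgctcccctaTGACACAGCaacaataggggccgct
Psmd12, chr11:107479278-107479305, plus strand: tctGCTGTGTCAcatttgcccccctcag
Psmc6, chr14:45329581-45329621, plus strand: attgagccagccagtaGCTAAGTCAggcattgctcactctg
A match is a run of letters and was not tested as a binding site. Counted from the annotated start, the first base of the core was at −47 in Psmb5, −9 in Psmb6, −162 in Adrm1, −227 in Psmc6 and −247 in Psmd12. Among these 5 genes, the log2 difference of HOCl 100µM against HBSS was 0.27 for Psmb5, 0.11 for Psmb6, 0.08 for Psmd12, 0.05 for Adrm1 and −0.01 for Psmc6.

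Proteasome genes were highly expressed in all libraries. The mean over 12 libraries ranged among the 34 members between 17.6 FPKM for Pomp and 200.5 FPKM for Psmb6, the caspase-like catalytic subunit. That placed Psmb6 above 98.0% of tested genes and Pomp above 73.2%. Psmd8, a subunit of the lid, followed Psmb6 with 188 FPKM, and Psma6 of the alpha ring came next with 170 FPKM. Adrm1, a ubiquitin receptor of the base, was the lowest subunit with 24.9 FPKM. Nfe2l1 averaged 111 FPKM, sixth among the members, although its product is a transcription factor. Without cell media replicates 1 and 2 the median subunit level on the FPKM scale was 87.6 in the alpha ring, 80.9 in the beta ring, 68.7 among the ATPases, 52.4 among the other base subunits and 51.6 in the lid. Psmb6 and Psmd8 had SDs of 46.4 and 47.2 FPKM over the 12 libraries. Compared within libraries, Psmb6 lay above Psmd8 in all except cell media replicate 1, which had 249.1 and 301.5 FPKM.

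The order of the levels depended on the length that FPKM divides by. The FPKM values lay on whole reads when multiplied by the union of all annotated exons, which is much longer than the main transcript for some members. Rescaled to the principal transcript, a choice made after the data were seen, Psmb6 and Psmd8 kept ranks 1 and 2, with 470 and 374 FPKM. Psma7 went to rank 3 from rank 7 and Psmb3 to rank 4 from rank 11, while Psmb5 went to rank 22 from rank 10 and Nfe2l1 to rank 13 from rank 6. Pomp had 58.2 FPKM on that scale. Comparisons between groups use the same length for a gene in each library. In the main fit it enters them only through the filter on low values and the 1 that is added to FPKM before the log2.

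**Figure D1:**
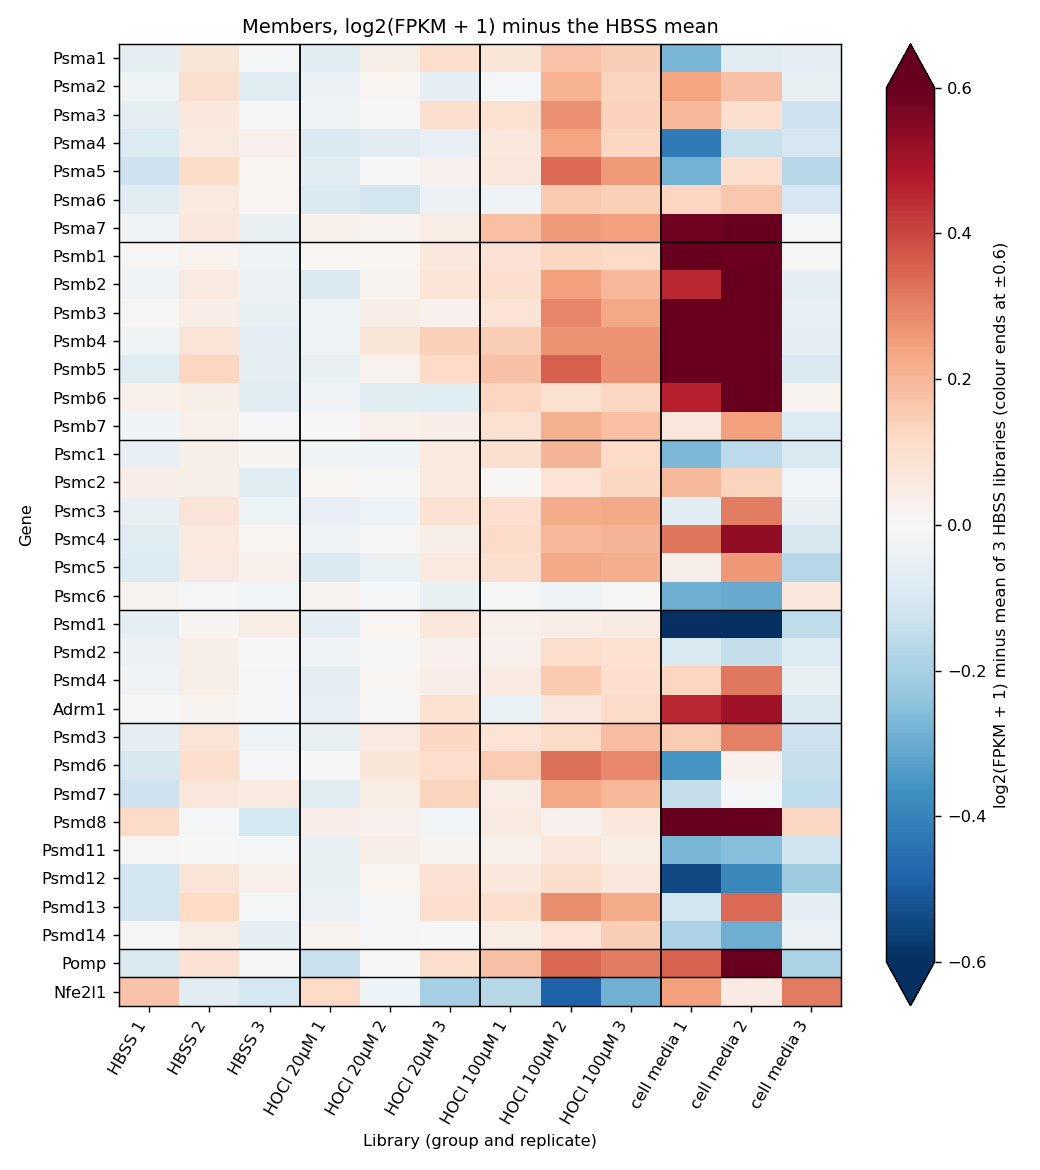
Each cell shows log2(FPKM + 1) of a member (rows, grouped by subcomplex, with Pomp and Nfe2l1 last) in a library (columns) minus its mean over the 3 HBSS libraries, red for higher and blue for lower. The HOCl 100µM columns are mostly red and their Nfe2l1 row is blue; cell media replicates 1 and 2 go beyond the ends of the scale in several beta ring genes.

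In the comparison of HOCl 100µM with HBSS, which asks what the high dose did relative to its vehicle, proteasome subunits were slightly higher and Nfe2l1 was lower. The log2 difference (FPKM plus a pseudocount of 1) was above 0 in 32 of 34 members, with a median of 0.13, against −0.01 over all 12026 genes. With quantile normalization, which gives every library the same distribution of values, 27 members were above 0 and 7 below, with a median of 0.04. The exceptions without it were Nfe2l1 and the ATPase Psmc6. No member passed limma's test at an adjusted p under 0.05, nor did any of the 12026 genes (0%). On 10 libraries 29 genes passed (0.241%), none of them a member; the lowest adjusted p of a member was then 0.0546, for Psma7 of the alpha ring, named after its values were seen. At an unadjusted p under 0.05 limma gave 2 members, Psmd6 and Nfe2l1, with 7.76% of all genes at that level. That count rested on single libraries: it was 0 without HBSS replicate 1 or without HOCl 100µM replicate 2, 1 without HBSS replicate 3 or without HOCl 100µM replicate 3, 3 without HOCl 100µM replicate 1, 6 without cell media replicate 2 and 13 without cell media replicate 3. The share of all genes then ran from 3.0% without HOCl 100µM replicate 3 to 27.7% without cell media replicate 3. On 10 libraries 20 of 34 members (58.8%) were higher at that level, against 14.9% of all genes. The 3 HOCl 100µM libraries were all above the 3 HBSS libraries in 20 of 34 members (58.8%), against 16.5% of all genes. They were all below in 1 member, Nfe2l1, with 17.6% of all genes so.

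Summed over the 32 subunits, the level was 2536, 2731 and 2687 FPKM at HOCl 100µM, against 2348, 2492 and 2368 FPKM in HBSS. The groups did not overlap, but the lowest HOCl 100µM library and the highest HBSS library, replicate 1 and replicate 2, were close. The subunits made up 0.807 ± 0.015% of all FPKM at HOCl 100µM and 0.765 ± 0.017% in HBSS (SD, n = 3 each). The 20S core had 1371 ± 64 FPKM at HOCl 100µM and 1220 ± 47 FPKM in HBSS. The 19S cap had 1280 ± 38 FPKM at HOCl 100µM and 1183 ± 30 FPKM in HBSS (SD, n = 3 each). The median log2 difference was 0.17 among the 14 core subunits and 0.10 among the 18 cap subunits, or 0.07 and 0.02 with quantile normalization, a contrast that was not tested. In bulk samples a change in the RNA of each cell and a change in which cells were present cannot be told apart.

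All 7 subunits of the beta ring, which holds the proteolytic sites, were higher at HOCl 100µM with no overlap between the groups, by a median log2 difference of 0.18. Psmb5, the chymotrypsin-like subunit, had 86.0, 97.8 and 92.1 FPKM at HOCl 100µM, against 72.3, 83.3 and 72.9 FPKM in HBSS. Its log2 difference was 0.27, the largest of the ring. Its SE was 0.28 on 12 libraries (limma, adjusted p = 0.736) and 0.07 on 10 libraries (limma, adjusted p = 0.0721), since the level of this gene in cell media replicates 1 and 2 adds to the shared spread. Psmb7, the trypsin-like subunit, had 43.5, 47.4 and 46.3 FPKM at HOCl 100µM, against 40.0, 41.7 and 40.6 FPKM in HBSS. All 3 treated libraries lay above all 3 vehicle libraries, with a log2 difference of 0.16 (SE 0.09; limma, adjusted p = 0.655). Psmb6 had 196.6, 192.0 and 196.0 FPKM at HOCl 100µM, against 183.6, 184.1 and 172.2 FPKM in HBSS. Its log2 difference of 0.11 (SE 0.16; limma, adjusted p = 0.788) was the second smallest of the ring, after Psmb1.

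All 7 subunits of the alpha ring, which gates the core, were higher at HOCl 100µM, 4 of them without overlap, by log2 differences of 0.09 to 0.23 with a median of 0.14, except that Psma6 turned below 0 with quantile normalization or with the exon length trend removed. Psma5 had 96.1, 116.2 and 109.7 FPKM at HOCl 100µM, against 84.1, 98.8 and 92.4 FPKM in HBSS. The lowest HOCl 100µM library, replicate 1, lay below the highest HBSS library, replicate 2. The log2 difference was 0.22 (SE 0.11; limma, adjusted p = 0.652). Psma3 had 34.9, 39.8 and 36.1 FPKM at HOCl 100µM, against 31.3, 34.2 and 32.6 FPKM in HBSS. These groups did not overlap, and the log2 difference was 0.17 (SE 0.09; limma, adjusted p = 0.663).

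Of the 6 ATPases of the base, the motor that unfolds substrates, 5 had higher values, 4 of them without overlap, with a median log2 difference of 0.16 over the 6. Psmc6 was the exception. It had 51.8, 51.2 and 52.4 FPKM at HOCl 100µM, against 53.0, 51.9 and 51.5 FPKM in HBSS. The log2 difference was −0.01, with a 95% interval of −0.22 to 0.20 (−0.09 to 0.07 on 10 libraries), and with median-of-ratios scaling it was 0.02. The 4 other base subunits, which form the scaffold and receive ubiquitin, were all higher, 1 of them without overlap, by a median of 0.06, but with quantile normalization Psmd1 and Psmd2 were below 0. Adrm1 had 22.5, 24.3 and 25.1 FPKM at HOCl 100µM, against 23.1, 23.4 and 23.0 FPKM in HBSS. The treated libraries lay on both sides of the vehicle libraries, with a log2 difference of 0.05 (SE 0.13).

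All 8 lid subunits were higher at HOCl 100µM, 3 of them without overlap, by a median log2 difference of 0.11, but with quantile normalization Psmd8 and Psmd11 were below 0. Psmd6 had 37.1, 42.1 and 40.9 FPKM at HOCl 100µM, against 31.1, 35.9 and 33.0 FPKM in HBSS. It had the largest difference among the 32 subunits after Psmb5, and no HBSS library reached the HOCl 100µM libraries. The log2 difference was 0.26 (SE 0.10; limma, adjusted p = 0.627, and adjusted p = 0.0694 on 10 libraries). Psmd14, the deubiquitinase that cuts ubiquitin chains from substrates, had 67.6, 69.5 and 72.6 FPKM at HOCl 100µM, against 65.8, 67.7 and 63.1 FPKM in HBSS. These groups overlapped by a narrow margin, with a log2 difference of 0.09 (SE 0.08; limma, adjusted p = 0.700).

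Pomp, the chaperone that helps beta subunits join the core, had the largest positive difference of the 34 members. It had 17.9, 20.2 and 19.7 FPKM at HOCl 100µM, against 14.7, 16.8 and 15.7 FPKM in HBSS. The groups did not overlap, and the log2 difference of 0.28 (SE 0.17) is a fold of 1.21 on the FPKM + 1 scale (limma, adjusted p = 0.669 on 12 libraries and 0.0736 on 10).

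Nfe2l1 went the other way. It had 100.0, 79.8 and 91.7 FPKM at HOCl 100µM, against 126.7, 107.2 and 104.3 FPKM in HBSS. Each HOCl 100µM library lay below each HBSS library, with the closest pair at 100.0 and 104.3 FPKM. The log2 difference was −0.31 with a 95% interval of −0.58 to −0.04, a fold of 0.804 (limma, adjusted p = 0.627, and adjusted p = 0.104 on 10 libraries). It was the only member at HOCl 100µM with lower values in all 3 libraries, while 17.6% of all genes were so.

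**Figure D2:**
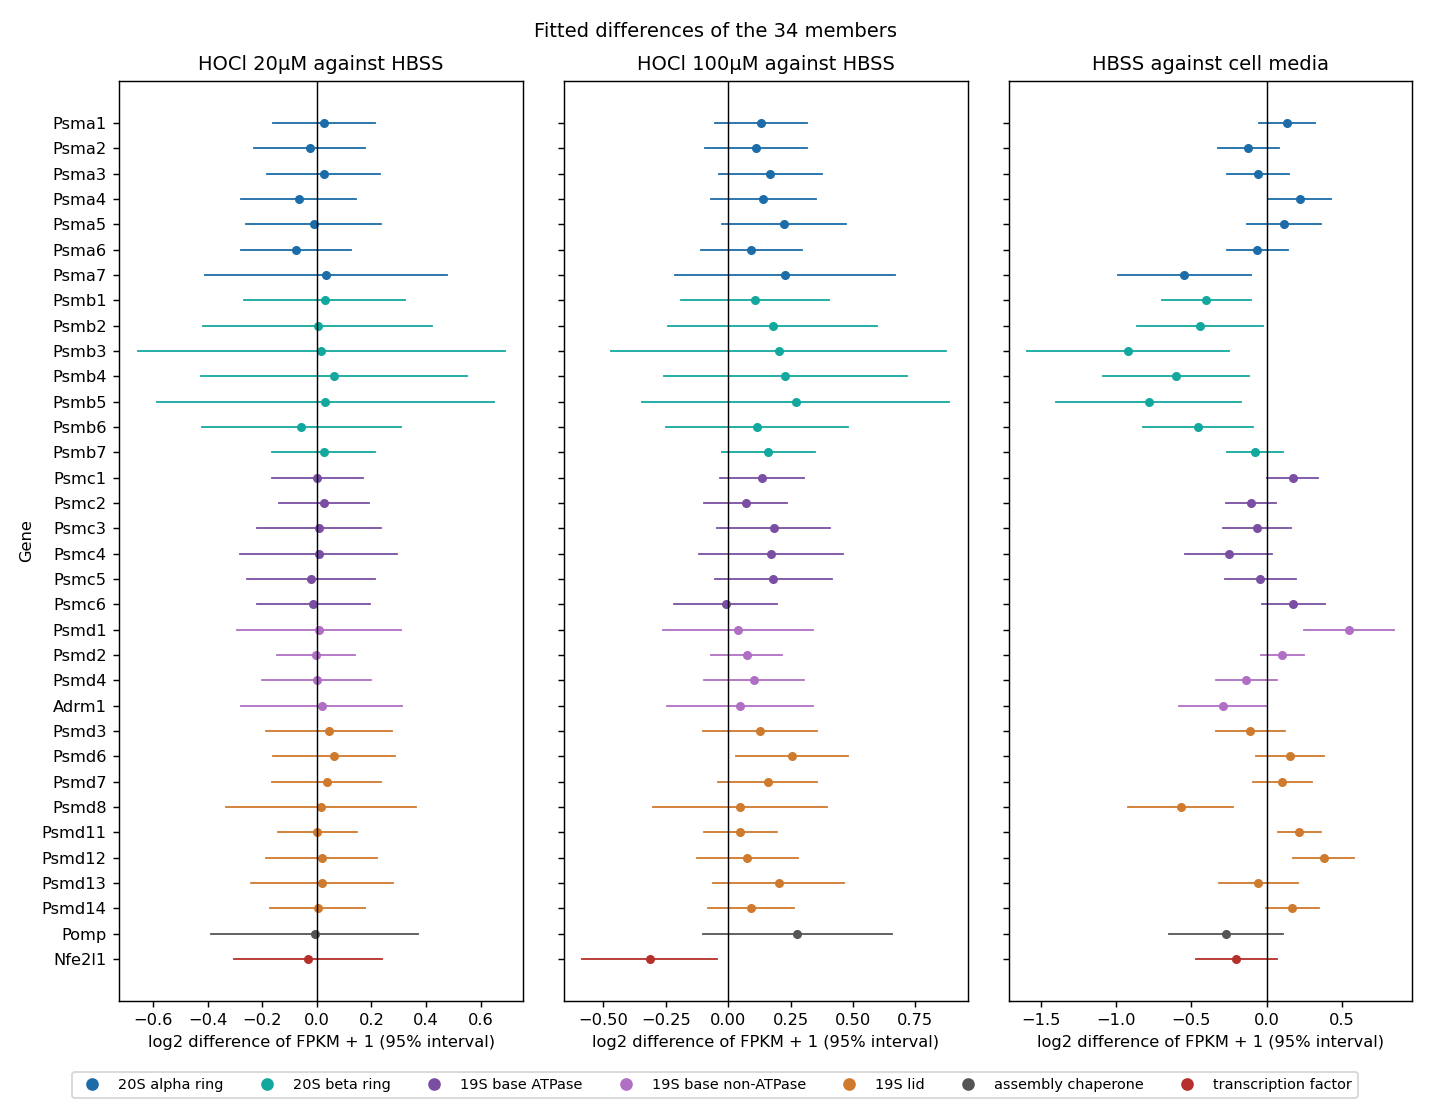
Points show the fitted log2 difference of each member and lines its 95% interval, in HOCl 20µM against HBSS (left), HOCl 100µM against HBSS (middle) and HBSS against cell media (right), on different horizontal scales and coloured by subcomplex. Differences at HOCl 20µM lie near 0, between −0.08 and 0.06; at HOCl 100µM 32 of 34 points lie right of 0 (27 with quantile normalization, not drawn); and the beta ring lies left of 0 in HBSS against cell media, all but Psmb7 also with quantile normalization.

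**Figure D3:**
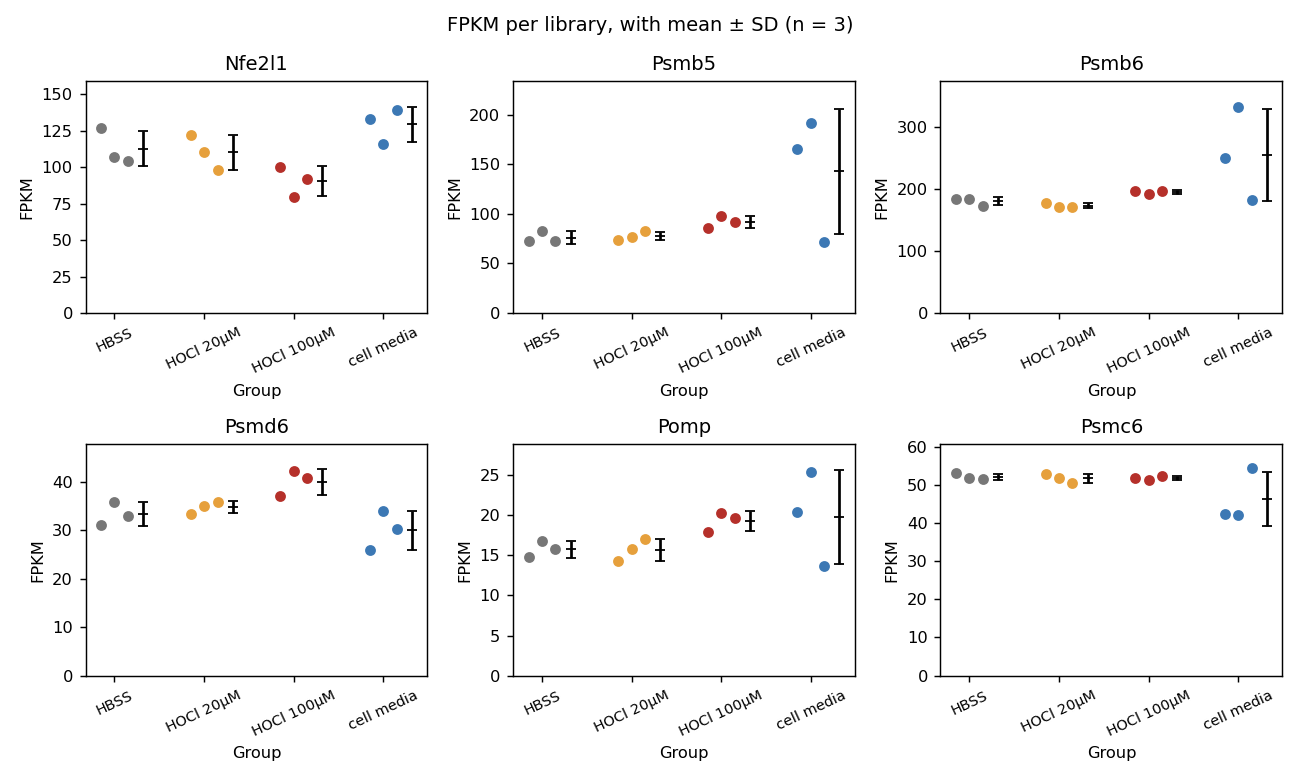
FPKM in each library (points, replicates 1 to 3 left to right) with the mean ± SD of the group beside them, for Nfe2l1, Psmb5, Psmb6, Psmd6, Pomp and Psmc6. The HOCl 100µM points lie above HBSS in Psmb5, Psmb6, Psmd6 and Pomp, below it in Nfe2l1 and among it in Psmc6, and the cell media points of Psmb5 are split, with replicate 3 at 71.6 FPKM.

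The comparison of HOCl 20µM with HBSS asks the same of the low dose, where the members lay close to the vehicle. The log2 difference was above 0 in 23 members and below 0 in 11, with a median of 0.01, against 0.01 over all genes. The split turned with the setting: it was 16 above and 18 below with median-of-ratios scaling and with quantile normalization. Among libraries left out, it was 12 above and 22 below without HOCl 20µM replicate 3, 13 and 21 without HBSS replicate 1, and 16 and 18 without HBSS replicate 3. It was 29 and 5 without HBSS replicate 2 and 27 and 7 without HOCl 20µM replicate 1. The median ran from −0.013 without HOCl 20µM replicate 3 to 0.035 without HBSS replicate 2. No member passed limma's test and none had an unadjusted p under 0.05, against 0% and 1.08% of all genes. On 10 libraries, too, no gene passed (0%). No member's groups were free of overlap, against 4.21% of genes that were higher and 3.48% that were lower. The differences ran between −0.08 and 0.06.

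The member with the smallest p at HOCl 20µM was Psma6, an alpha ring subunit, with 157.8, 154.9 and 163.5 FPKM at HOCl 20µM, against 159.5, 174.3 and 168.8 FPKM in HBSS. The ranges overlapped, and the log2 difference was −0.08 with a 95% interval of −0.28 to 0.13 (limma, adjusted p = 0.9999). Psma4, also of the alpha ring, had 81.5, 82.9 and 83.5 FPKM at HOCl 20µM, against 81.8, 90.0 and 88.1 FPKM in HBSS. The log2 difference was −0.07, with an interval of −0.28 to 0.14. Psmd6 had 33.4, 35.1 and 35.9 FPKM at HOCl 20µM, against 31.1, 35.9 and 33.0 FPKM in HBSS, a log2 difference of 0.06 with an interval of −0.16 to 0.29. Nfe2l1 had 122.1, 110.8 and 97.8 FPKM at HOCl 20µM, against 126.7, 107.2 and 104.3 FPKM in HBSS. The 2 sets of 3 interleaved, and the log2 difference was −0.03 with an interval of −0.30 to 0.24, which turned to 0.05 without HBSS replicate 1 or without HOCl 20µM replicate 3. On 12 libraries the intervals of many members reached beyond 0.2 in both directions. For them a difference of the size seen at HOCl 100µM lay within the interval at HOCl 20µM. On 10 libraries the intervals were narrower, between −0.21 and 0.21 for the 32 subunits, −0.18 and 0.16 for Pomp and −0.28 and 0.22 for Nfe2l1. The largest HOCl 100µM differences, of Pomp (0.28), Psmb5 (0.27), Psmd6 (0.26) and Nfe2l1 (−0.31), lay outside these. These genes were picked for their size at HOCl 100µM, and this leaves out the uncertainty of their own differences. For Nfe2l1 the HOCl 100µM interval on 10 libraries was −0.57 to −0.06, which overlaps that at HOCl 20µM. No gene passed limma's test between the doses on 10 libraries. The median over the members at HOCl 100µM, 0.13, lay inside the HOCl 20µM range of the subunits.

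The comparison of the doses shares the HOCl 100µM libraries with the first comparison and is no independent sign of it. Of 34 members, 33 were higher at HOCl 100µM than at HOCl 20µM, with a median log2 difference of 0.14, against −0.02 over all genes; with quantile normalization it was 28 members and a median of 0.08. No member passed limma's test, nor did any gene, on 12 (0%) or 10 libraries (0%). At an unadjusted p under 0.05 there was 1 member, Nfe2l1, with 4% of genes at that level. Leaving out a library gave 0 to 11 such members, the 11 without cell media replicate 3 and 0 without HBSS replicates 2 or 3, HOCl 20µM replicates 1 or 2, or HOCl 100µM replicates 2 or 3. It was 3 without HOCl 100µM replicate 1, 4 without cell media replicate 1 (4.77% of all genes) and 7 without cell media replicate 2 (6.13% of all genes). For the counts of 11 and 3 the share of all genes is not given here, so they cannot be read as particular to the members. In HOCl 100µM against HBSS, leaving out cell media replicate 3 put 27.7% of all genes at that level. On 10 libraries 20 members were higher at that level, against 10.5% of genes. The HOCl 100µM libraries were all above the HOCl 20µM libraries in 21 members (61.8%), against 12.7% of genes, and all below in no member, against 15.6% of genes.

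Psma4 had 90.5, 102.2 and 94.4 FPKM at HOCl 100µM, against 81.5, 82.9 and 83.5 FPKM at HOCl 20µM. The groups did not overlap, and the log2 difference was 0.21 (SE 0.10; limma, adjusted p = 0.825). Psma5 had 96.1, 116.2 and 109.7 FPKM at HOCl 100µM, against 87.6, 91.6 and 93.2 FPKM at HOCl 20µM, again without overlap, with a log2 difference of 0.23 (SE 0.11; limma, adjusted p = 0.825). Nfe2l1 was lower by a log2 difference of −0.28 (SE 0.12; limma, adjusted p = 0.825). Its groups overlapped, since HOCl 20µM replicate 3, at 97.8 FPKM, lay below HOCl 100µM replicate 1, at 100.0 FPKM.

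The comparison of HBSS with cell media asks what the vehicle step did, and here the members split by library more than by group. Of 34 members, 12 were higher and 22 lower in HBSS, with a median log2 difference of −0.07, against 0.10 over all genes. Median-of-ratios scaling, which put the median of all genes at −0.01, gave −0.21 for the members. With quantile normalization 18 members were higher and 16 lower, with a median of 0.0032. No member passed limma's test, against 2 genes of 12026 (0.0166%). At an unadjusted p under 0.05 there were 13 members, 5 higher and 8 lower, with 40% of all genes at that level. There were 24 without cell media replicate 3, where most genes passed limma's test even at an adjusted p under 0.05. Without HBSS replicate 3 there were 7, for which the share of all genes is not given here. Without cell media replicate 1 there were 6, with 18.7% of all genes at that level. Without cell media replicate 2 there were also 6, with 22.3% of all genes. The HBSS libraries were all above the cell media libraries in 7 members, against 12.7% of genes, and all below in 1, against 8.91% of genes.

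All 7 beta ring subunits were lower in HBSS than in cell media by the fitted means (all but Psmb7 with quantile normalization), 6 of them at an unadjusted p under 0.05, and in each of them the groups overlapped. Psmb5 had 72.3, 83.3 and 72.9 FPKM in HBSS, against 165.6, 191.8 and 71.6 FPKM in cell media. Cell media replicate 3 lay beside the HBSS libraries, and replicates 1 and 2 far above them. Psmb3, with the largest difference of all members (−0.92), had 72.3, 74.1 and 69.9 FPKM in HBSS, against 183.6, 202.4 and 69.6 FPKM in cell media; it was named after its values were seen. The beta ring differences rest on cell media replicates 1 and 2: on 10 libraries, with cell media replicate 3 alone (n = 1, its spread taken from the other groups), 5 of the 7 were higher in HBSS and 2 lower, with a median of 0.06. Over the 34 members the median was then 0.08, with 29 higher in HBSS. Over all genes it was −0.01, with 45.8% higher in HBSS. Without cell media replicate 3, so against replicates 1 and 2 only, limma called 7852 of 12026 genes and 23 of 34 members. In these calls, against replicates 1 and 2, the members were thus near the share of all genes.

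The cap subunits with the smallest p in this comparison went both ways. Psmd12, a scaffold subunit of the lid, had 59.2, 67.6 and 65.4 FPKM in HBSS, against 43.6, 48.7 and 55.0 FPKM in cell media. Its groups did not overlap, and the log2 difference was 0.38 (SE 0.09; limma, adjusted p = 0.0711). Psmd1, the large scaffold subunit of the base, had 34.9, 36.9 and 37.4 FPKM in HBSS, against 21.1, 21.5 and 32.6 FPKM in cell media, a log2 difference of 0.55 (SE 0.14; limma, adjusted p = 0.0711). Here, too, cell media replicate 3 was the closest to HBSS. Psmd8, a small lid subunit, was the member that was lower without overlap, with 178.7, 163.8 and 153.0 FPKM in HBSS, against 301.5, 273.5 and 179.6 FPKM in cell media (log2 difference −0.57, SE 0.16; limma, adjusted p = 0.0711). Replicate 3 of cell media stood just above the highest HBSS library. Nfe2l1 had 126.7, 107.2 and 104.3 FPKM in HBSS, against 133.2, 116.2 and 139.4 FPKM in cell media, with overlap (log2 difference −0.20, SE 0.12; limma, adjusted p = 0.224). On 10 libraries, with cell media replicate 3 alone (n = 1), the log2 difference of Nfe2l1 was −0.31. That is the size it had in HOCl 100µM against HBSS, also −0.31. In the same setting 28 of the 32 subunits were higher in HBSS than in cell media and 4 were lower. Higher subunits beside lower Nfe2l1 were thus not seen at HOCl 100µM alone.

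The subunits moved together across libraries. Over the 10 libraries without cell media replicates 1 and 2, the Pearson correlation of a subunit's log2(FPKM + 1) with the mean of the other 31 had a median of 0.935 over the 32 subunits and was above 0 for 30 of them. The highest was Psmb5, at 0.985. The exceptions were Psmc6 at −0.565 and Psmd8 at −0.151, and Psmb6, at 0.585, was the lowest of the rest. With values taken as deviations from the group mean, in the 9 libraries of HBSS and HOCl, the median was 0.869. It was then above 0 for 29 subunits, with Psmc6 at −0.554, Psmd8 at −0.350 and Psmb6 at −0.194. Over all 12026 genes, the correlation with the mean of the 32 subunits had a median of −0.072 over the 10 libraries and −0.027 for the deviations. The share of all genes with correlations as high as those of the subunits was not counted. These libraries share a processing and 1 scale, and the genes are not independent replicates.

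Nfe2l1 ran opposite to the subunits over the same 10 libraries. Its correlation with the mean of the 32 subunits was −0.931 (Spearman −0.915, and Pearson −0.882 without the 2 libraries farthest from the median of the subunit mean). Of all genes, 6.0% had a correlation as low or lower. With each library's values taken as deviations from its group mean, in the 9 libraries of HBSS and HOCl, the correlation was −0.817, and 9.80% of genes were as low or lower. In each of these 3 groups, replicate 1 had the highest Nfe2l1 and the lowest median of the subunits. Single subunits ran as low as −0.971 against Nfe2l1, for Psmd7, chosen after its value was seen. Psmc6 ran with Nfe2l1, at 0.777. Cell media replicates 1 and 2 left this pattern, with high subunit levels beside 133.2 and 116.2 FPKM of Nfe2l1.

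Transcript length moved with the differences. Over the 34 members, the Spearman correlation of the log2 difference with union exon length was −0.50 for HOCl 100µM against HBSS and −0.60 for HOCl 100µM against HOCl 20µM, so the difference lay higher in shorter genes; it was 0.10 for HOCl 20µM against HBSS. Over all genes, the slope of log2(FPKM + 1), taken relative to the HBSS mean, per doubling of exon length was −0.029 to −0.046 in the HOCl 100µM libraries, against −0.010 to 0.011 in HBSS. In the HOCl 20µM libraries it was 0.00089, −0.014 and −0.032. It was −0.084 and −0.115 in cell media replicates 1 and 2. With each library's trend on exon length removed, the median over the 34 members for HOCl 100µM against HBSS was 0.10, with 0.12 in the core and 0.09 in the cap, and Nfe2l1 had −0.27. With quantile normalization 26 of 32 subunits were above 0, and Nfe2l1 had −0.43. What the length trend contributed to the rest was not tested.

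**Figure D4:**
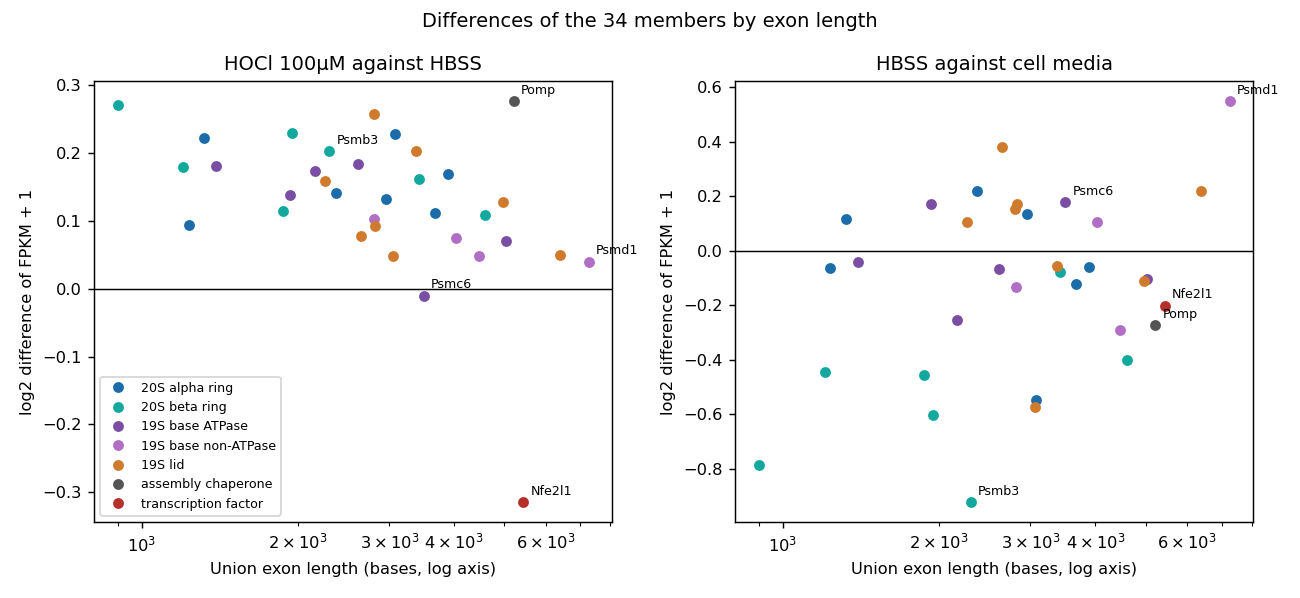
Fitted log2 difference of the 34 members against union exon length in bases (log axis), for HOCl 100µM against HBSS (left) and HBSS against cell media (right), coloured by subcomplex. At HOCl 100µM shorter members tend to lie higher (Spearman −0.50), with Pomp above and Nfe2l1 below the others; no such order is seen on the right (Spearman 0.15).

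Other genes of the pathway were counted from lists, and none of their members passed limma's test in either direction in any of the 4 comparisons. In HOCl 100µM against HBSS, the 7 dedicated assembly chaperones that were tested all had higher values, with a median log2 difference of 0.14. Paaf1, the eighth of that list, was not analysed here. The smallest p was that of Psmd10, a chaperone of the ATPase ring also called gankyrin, which had 27.5 ± 0.9 FPKM at HOCl 100µM and 24.4 ± 0.8 FPKM in HBSS (SD, n = 3 each; log2 difference 0.16, limma, adjusted p = 0.625). All 5 genes of the immunoproteasome and its activator were higher, by a median of 0.17. Psmb10, its inducible trypsin-like subunit, had 23.5 ± 2.5 FPKM at HOCl 100µM and 19.5 ± 1.4 FPKM in HBSS (SD, n = 3 each), with overlap. Proteasome-bound factors and activators went both ways, with 9 of 17 higher and a median of 0.03. The smallest p was that of Txnl1, a thioredoxin-like protein of the 19S cap, which had 18.1 ± 1.2 FPKM at HOCl 100µM and 16.1 ± 0.9 FPKM in HBSS (SD, n = 3 each), with overlap, and a log2 difference of 0.16 (limma, adjusted p = 0.636). Psmf1, which binds the core, came next with 11.97 ± 0.95 FPKM at HOCl 100µM and 10.35 ± 0.49 FPKM in HBSS (SD, n = 3 each), without overlap. The third was Ddi2, the protease that cuts Nfe2l1 into its active form, with 11.5 ± 1.3 FPKM at HOCl 100µM and 13.7 ± 0.5 FPKM in HBSS (SD, n = 3 each), without overlap and with a log2 difference of −0.24 (limma, adjusted p = 0.686). Ubiquitin genes and its activating enzymes had 5 of 6 members higher and a median of 0.10. Rps27a, which encodes ubiquitin fused to a ribosomal protein, had the smallest p, with 239.0, 366.9 and 311.7 FPKM at HOCl 100µM, against 323.8, 143.1 and 129.2 FPKM in HBSS. HBSS replicate 1 lay among the treated libraries, and the log2 difference was 0.73 (SE 0.33; limma, adjusted p = 0.636). Its counts are uncertain, since reads may be shared with near-identical copies of the gene.

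The list of genes that process Nfe2l1, pair with it or are related to it had 5 of 13 tested genes higher and a median of −0.09. Mafg and Mafk, small Maf proteins that pair with Nfe2l1 on DNA, had the smallest p. Mafg had 21.8 ± 1.8 FPKM at HOCl 100µM and 26.4 ± 1.6 FPKM in HBSS (SD, n = 3 each; log2 difference −0.26, limma, adjusted p = 0.602). Mafk had 5.31 ± 0.13 FPKM at HOCl 100µM and 6.33 ± 0.25 FPKM in HBSS (SD, n = 3 each; log2 difference −0.21, limma, adjusted p = 0.602). Maff, the other small Maf of the list, was higher, with overlap. It had 2.77, 3.20 and 3.19 FPKM at HOCl 100µM, against 2.41, 2.83 and 2.75 FPKM in HBSS. For Mafg and Mafk the groups did not overlap, and 17.6% of all genes were lower without overlap. Fbxw7, a ubiquitin ligase subunit that targets nuclear Nfe2l1, had 2.46 ± 0.18 FPKM at HOCl 100µM and 3.17 ± 0.25 FPKM in HBSS (SD, n = 3 each), also without overlap. Keap1, the repressor of Nfe2l2, was the other way, with 7.87 ± 0.30 FPKM at HOCl 100µM and 7.09 ± 0.41 FPKM in HBSS (SD, n = 3 each). Of the tissue-restricted subunits, Psmb11 of the thymus reached at most 0.0118 FPKM in any library, and Psma8 of the testis was not analysed here.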

How the data were processed

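Messenger RNA libraries of 12 J774A.1 samples were measured, 3 in each of 4 groups. The deposited values are FPKM, made by the authors with HISAT2 and featureCounts on the GRCm39 build per the submitters' processing notes; their versions, strand setting and gene lengths, and how reads shared with pseudogenes or overlapping genes were counted, are not given in the sources used here. Several sequencing instruments are named for the series without assignment to libraries, so no batch could be tested. Values below 1 FPKM times exon length (GENCODE M21) lay on whole reads within 0.01 for 98.26% of values, which gave the depths; intervals cover the spread between libraries only. Of 28977 IDs, 28302 had a symbol. Genes with at least 1 FPKM in at least 3 libraries were tested with limma 3.58.1 (R 4.3.3) on log2(FPKM + 1), with 1 mean per group, a mean-variance trend and Benjamini-Hochberg adjustment over 12026 genes, called at an adjusted p under 0.05; a fold on this scale understates low genes. With 3 libraries against 3, an exact permutation test cannot go below p = 0.1 and was not used.

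The members, lists and most alternatives were chosen with earlier results of these data known. Genes given by library were Nfe2l1, the catalytic subunits, Psmd14, Pomp, the highest and lowest subunit, the 5 members with the smallest p for HOCl 100µM against HBSS and the 3 for each other comparison, and members whose sign differed from the median; in other lists, between 1 and 4 genes of smallest p for HOCl 100µM against HBSS. Alternatives were a pseudocount of 0.1, other filters, median-of-ratios and quantile scaling, other sets of libraries, a replicate block, no trend, removal of a loess trend on exon length, and leaving out each library. The fit was checked on simulated data. Python 3.11.15 was used for tables and plots.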

Additional observations from a re-analysis of the deposited data

How the results depend on the processing

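The counts of genes called, the counts and the median of the members and Nfe2l1 were computed in each comparison under 25 other settings, as were the members given by library; 786 of 850 values kept their direction and their side of the threshold or stayed within the limits set for counts and medians. For HOCl 100µM against HBSS, 1 gene was called with no filter, 2 with only the 6 libraries compared, 29 on 10 libraries and 1 on 10 libraries with the exon length trend removed (added after seeing the data), against 0 as reported. Leaving out each library in turn gave 0 to 5 genes, the 5 without cell media replicate 3. The member median was 0.0419 with quantile normalization and 0.0409 with it on 10 libraries (also added then). Psmc6 changed sign with median-of-ratios scaling, to 0.021, and ran from −0.018 to 0.0012 over libraries left out. For HOCl 20µM against HBSS, 6 genes were called with no filter, and Nfe2l1 ran from −0.11 to 0.054 over libraries left out. For HOCl 100µM against HOCl 20µM, 11 genes were called with no filter and 1 with the 6 libraries compared, and 0 to 1 with a library left out; the member median was 0.0752 with quantile normalization and 0.0736 with it on 10 libraries. For HBSS against cell media, 2 genes were called as reported, 5 with no filter or no mean-variance trend, 4 with quantile normalization, 1 with a mean of at least 5 FPKM or with the length trend removed, 0 with the 6 libraries compared and 0 on 10 libraries, also with the length trend removed or quantile normalization. Leaving out a library gave 0 to 7852 of 12026 genes and 0 to 23 of 34 members, the highest without cell media replicate 3. There the member median was −0.21 with median-of-ratios scaling and 0.0032 with quantile normalization, and on 10 libraries 0.0805, 0.0652 with the length trend removed and 0.0533 with quantile normalization; Nfe2l1 changed sign to 0.0248 with quantile normalization. The causes were not tested.

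Samples with the same replicate number did not deviate together throughout: the correlation of their deviations from the group means was above 0.1 in 7 of 18 pairs, with a median of 0.043. Without cell media it was above 0.1 in 5 of 9 pairs: all 3 of replicate 1 (0.264 to 0.377), 0 of 3 of replicate 2 and 2 of 3 of replicate 3. Since not every pair was above 0.1, the samples were not treated as paired, and the labels name no shared culture or day. The replicate block on 12 libraries called 0 members in every comparison, and 193 genes in HBSS against cell media. On 10 libraries the replicate block called 2979 genes and 19 members in HOCl 100µM against HBSS, with Nfe2l1 at −0.314 (limma, adjusted p = 0.0211), and 2088 genes and 16 members in HOCl 100µM against HOCl 20µM, with Nfe2l1 at −0.282 (limma, adjusted p = 0.0362). It called 0 genes in HBSS against cell media, where the member median was 0.0932. Depth limited none of the members, the lowest value of which rested on 1305 recovered reads.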
